A study of Mus musculus with 6 samples.

Results

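Fgfr2, Fgfr3, Flrt3 and Sdc1 encode 2 receptors for fibroblast growth factors (FGFs) and 2 membrane proteins that work beside them. They were taken by name from the authors' deposited table of changes after excision of p63, in which they are 4 of 16381 listed entries. Their RNA was measured on Illumina bead arrays in 3 p63-excised and 3 p63-intact mouse cutaneous squamous cell carcinomas, with 1 array per tumour. The tumours arose under weekly DMBA, a skin carcinogen (25 mg, per the labels), in mice of genotype p53+/-, p63L/L; K14-CreER on a mixed c57BL/6 - CD1 background. Cells of a disaggregated primary tumour were transplanted orthotopically into Nude mice, which lack mature T cells but keep other host cells. The transplants grew for 13 days, the hosts then received 5 daily treatments, tamoxifen in the p63-excised and vehicle in the p63-intact group, and tumours were taken 1 to 3 days later. Both groups thus carried the same p53, p63 and Cre alleles and differed in tamoxifen, so the drug and the excision cannot be told apart. The Cre recombinase, which tamoxifen activates, is driven by the keratin 14 promoter, so cells of a whole tumour that do not use this promoter keep p63. The labels do not say whether all transplants came from the same primary tumour or were grown in different animals. The p-values therefore reflect only how far these samples spread, which may be technical.

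FGF receptors are receptor tyrosine kinases that dimerise when an FGF and a heparan sulfate chain bind together. They then signal through the adaptor FRS2 to Ras and ERK and to PI3K, and without FRS2 to phospholipase C gamma. In the epidermis the IIIb splice form of FGFR2 receives FGF7 and FGF10 from the dermis and supports keratinocyte growth and survival, while FGFR3 is best known in skin from its activating mutations in human benign keratoses. FLRT3 is a leucine-rich repeat protein that binds FGF receptors and promotes their signalling in frog embryos. Syndecan-1, the product of Sdc1, is the main heparan sulfate proteoglycan of keratinocyte surfaces and presents growth factors to their receptors. The study's title names FGFR2 signalling beside p63, a transcription factor on which squamous epithelia depend, and the comparison addresses what happens to this receptor system when p63 is removed.

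The promoters of Fgfr2 and Flrt3 are shown first, because both genes fell after excision of p63, a DNA-binding factor. Each run is the 250 bases before the RefSeq gene start in mouse build GRCm38.p6, read 5′ to 3′ on the strand of the gene; capitals mark the core of a pair of p53-family half-sites, which is CNNG, any 6 bases and CNNG again.
Fgfr2 (chr7:130266809-130267058, minus strand): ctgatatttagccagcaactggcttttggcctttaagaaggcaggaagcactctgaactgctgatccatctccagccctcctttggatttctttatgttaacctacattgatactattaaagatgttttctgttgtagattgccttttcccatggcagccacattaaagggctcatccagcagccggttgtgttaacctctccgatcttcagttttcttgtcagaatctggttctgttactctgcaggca
Flrt3 (chr2:140671477-140671726, minus strand): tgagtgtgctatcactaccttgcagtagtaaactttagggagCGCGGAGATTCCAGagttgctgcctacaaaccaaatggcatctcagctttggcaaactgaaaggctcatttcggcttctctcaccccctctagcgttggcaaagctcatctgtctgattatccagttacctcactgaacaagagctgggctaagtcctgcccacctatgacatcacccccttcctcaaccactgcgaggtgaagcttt

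The Fgfr2 window held no match to this core, and the Flrt3 window held 1, beginning 208 bases before the start. The Sdc1 window also held 1, and the windows of the 2 Fgfr3 start sites held 2 and 3. The core is common: 63.5% of 32851 RefSeq promoter windows of 250 bases held it on either strand. The stricter p53-family half-site was in 7.13% of all windows, and TGANTCA, the palindromic core bound by AP-1 factors, in 6.75%; none of the windows of Fgfr2, Fgfr3, Flrt3 and Sdc1 held either on either strand. The windows differed in base composition, with a GC content of 44% for Fgfr2, 50% for Flrt3, 66% for Sdc1, and 66.8% and 72.8% for the 2 RefSeq start sites of Fgfr3, against a median of 52.4% over all windows. A match is a description of these letters, and its absence says nothing about binding elsewhere, since p63 also binds distal enhancers.

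The number of arrays limits the precision of every value. Across the 6 arrays 11964 to 16096 of 45281 probes were detected above background, with 14520 or fewer on p63-excised and 13757 or more on p63-intact arrays. Array p63-excised 2 had the fewest detected probes and the highest median intensity (106.1 against 74.7 to 89.4 on the others). Of 13727 tested probes, 604 (4.4%) had a limma p under 0.05 after Benjamini-Hochberg adjustment, with 319 higher in excised tumours and 285 lower. With arrays only scaled to equal medians 50 passed (14 higher, 36 lower). Without p63-intact array 1, 2 or 3 the count was 301, 224 or 186, and without p63-excised array 1, 2 or 3 it was 328, 631 or 233. No table used here links a probe to its gene. A named gene therefore has no value per array, and whether the arrays of the groups overlap for it was not analysed here. For Trp63, the gene excised, the authors' deposited table gives a log2 change of -0.25 (adjusted p = 0.751). Whether its probe lies in the deleted part was not analysed here, and the value is no check of the labels. The keratinocyte keratin genes Krt5 and Krt14 did not pass, with log2 changes (authors' deposited table) of 0.27 and 0.12.

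After p63 excision Flrt3 and Fgfr2 fell, Fgfr3 was lower without passing the test, and Sdc1 was higher without passing it. Of the 4 genes, 2 passed at 0.05 after Benjamini-Hochberg adjustment of the p-values in the authors' deposited table, with 45281 tests taken, beside 1.16% of all listed entries. Both were lower in the excised tumours, a direction in which 0.501% of listed entries passed, and none was higher, where 0.659% did. Before adjustment all 4 had a p under 0.05 in the authors' deposited table, 3 lower and 1 higher, as did 19.9% of listed entries (10.6% lower and 9.31% higher). The genes were chosen with results of these data known, so these shares are a description. With 1.16% of all listed entries passing, a short list below in which none passed is near that share.

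**Figure D1:**
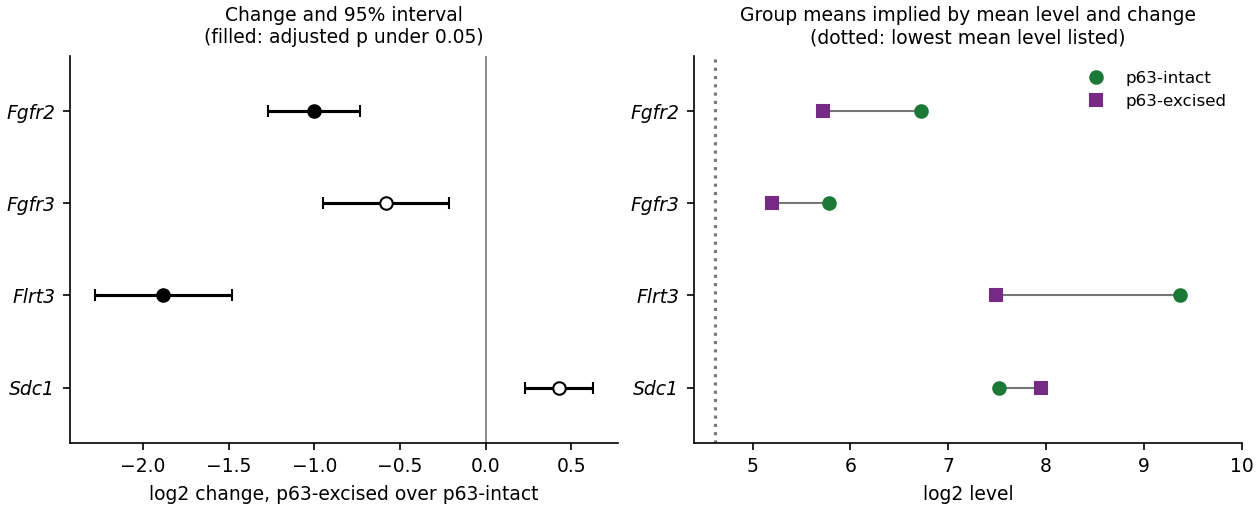
Left, the log2 change of each gene, excised over intact tumours, from the authors' deposited table (points) with the 95% interval that its t score gives (bars), filled where the adjusted p is under 0.05. Right, the log2 level of each group (3 arrays each) implied by the mean level and the change, with a dotted line at the lowest mean level listed, 4.62; Flrt3 drops from 9.37 to 7.49 and Fgfr2 from 6.72 to 5.72, while Sdc1 lies higher in excised tumours.

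Among the receptors, Fgfr2 fell to 50% of its level in p63-intact tumours, with an interval of 41.5% to 60.2% on the authors' normalized scale. In the authors' deposited table its log2 change was -1.0 with a t score of -8.91, from which a standard error of 0.11 and a 95% interval of -1.27 to -0.73 follow. Its mean log2 level of 6.22 in the authors' deposited table and this change place the group means at 6.72 in intact and 5.72 in excised tumours (3 arrays each). The excised mean is the nearer to the lowest mean level listed, 4.62. How far background signal narrows the ratio was not analysed here. By unadjusted p it ranked 96 of 16381 entries in the authors' deposited table, and 43 among the entries that were lower, with an adjusted p of 0.0281. The fall was close to the typical size among entries that passed, whose median absolute log2 change was 0.98 in the authors' deposited table, and 37 falls that passed were at least as deep, its own included. Which splice form of Fgfr2 the array reads, the epithelial IIIb or the mesenchymal IIIc, was not analysed here. In whole tumours, fewer cells that express a gene and less RNA of it per cell cannot be told apart, for Fgfr2 and for each gene below.

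Fgfr3 lay lower in the excised tumours, but its change did not pass the adjusted test. Its log2 change in the authors' deposited table was -0.58 ± 0.15 (SE from the t score of -3.75), with a 95% interval of -0.95 to -0.21 before adjustment for many tests. This puts the excised tumours at 66.9% of the intact level, between 51.8% and 86.4%, and the group means at 5.78 and 5.20 in log2. Its unadjusted p was 0.00778 in the authors' deposited table and its adjusted p 0.311, at rank 1134 of 16381. Its mean log2 level of 5.49 was nearest of the 4 to the lowest level listed, 4.62. The intervals of Fgfr3 and Fgfr2 overlap, and whether the 2 changes differ was not tested.

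The other listed member of the receptor family lay near no change. Fgfrl1, which binds FGFs but lacks a kinase domain, was at 0.12 in log2 (unadjusted p = 0.368, authors' deposited table). Of the 5 receptor genes of the family 3 are listed, and Fgfr1 and Fgfr4 are not analysed here. The table holds only entries with an unadjusted p of up to 0.462.

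Flrt3 had the deepest fall of the 4 genes. In the authors' deposited table its log2 change was -1.88 ± 0.17 (SE from the t score of -11.17), with a 95% interval of -2.28 to -1.48 and an adjusted p of 0.0162. The excised tumours held 27.2% of the intact level, between 20.6% and 35.9%, a 3.68-fold difference. Its implied group means were 9.37 in intact and 7.49 in excised tumours on the log2 scale, well above the lowest listed level in both groups. It ranked 40 of 16381 by p in the authors' deposited table, and 53 entries had a larger change in either direction. Only 8 falls that passed were as deep in the authors' deposited table, its own included. The interval of Flrt3 does not reach that of Fgfr2, though a difference between the changes of 2 genes was not tested.

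The related FLRT genes were lower without passing. Flrt1 and Flrt2, whose products share the leucine-rich repeat structure, had changes in log2 of -0.25 and -0.21 (unadjusted p = 0.113 and 0.0853, authors' deposited table). The mean log2 level of Flrt1, 4.99, was close to the lowest listed. Of 8 genes for FLRT proteins, klothos and adhesion molecules that contact FGF receptors, 5 are listed, and Flrt3 alone passed. The neural adhesion gene L1cam was at 0.16 in the authors' deposited table (unadjusted p = 0.122). The median of the 5 was -0.21 against 0.05 for all listed entries, but it includes Flrt3, chosen with results known. Of the 5, 3 had a mean log2 level under 5. FLRT3 also binds guidance receptors and latrophilins, and of 9 such genes 3 are listed and none passed. Robo1, a Slit receptor gene, was at -0.30 in the authors' deposited table (unadjusted p = 0.0188), and the netrin receptor gene Unc5d and the latrophilin gene Adgrl1 were at 0.06 and 0.10.

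Sdc1 was the only one of the 4 genes that lay higher in excised tumours. Its log2 change in the authors' deposited table was 0.43 ± 0.08 (SE from the t score of 5.22), with a 95% interval of 0.23 to 0.63 before adjustment. The excised tumours were at 135% of the intact level, between 118% and 154%, with implied group means of 7.52 and 7.95 in log2. Its adjusted p was 0.136, and 0.049 when only the 16381 listed entries of the authors' deposited table are counted as tests. Its standard error was the smallest of the 4 (0.08 against 0.11 to 0.17), and it ranked 469 by p. Plasma cells also carry syndecan-1. Of 5 plasma cell genes 3 are listed, 2 of them higher, none passed, and their summed level was 315 in intact and 369 in excised tumours (linear scale, from group means). Xbp1, a secretory factor gene that other cells also use, held most of this sum, and without it the sums were 58.0 and 59.5. The immunoglobulin joining chain gene Jchain was at -0.05 in log2 and Prdm1 at 0.12 (unadjusted p = 0.427 and 0.0527, authors' deposited table). Their mean log2 levels, 4.85 and 4.9, were near the lowest listed.

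Other heparan sulfate proteoglycan genes lay on both sides of no change. Of 10 syndecan and glypican genes 4 are listed, 2 higher and 2 lower, and none passed. Gpc1, a glypican gene, was at -0.51 (adjusted p = 0.185), Sdc2, a syndecan of mesenchymal cells, at -0.32 (unadjusted p = 0.0502), and the widely expressed Sdc4 at 0.13 (unadjusted p = 0.245, authors' deposited table). Among genes of proteins that bind or shed syndecan-1, 6 of 7 are listed, none passed, and their median was 0.13. Pdcd6ip, whose product ALIX joins syndecans and syntenin in exosome formation, had the highest log2 change, 1.25 (adjusted p = 0.0904, authors' deposited table). The gene of syntenin itself, Sdcbp, was at 0.09, those of the sheddases Mmp7, Adam17 and Mmp14 at 0.16, -0.10 and 0.19 in the authors' deposited table.

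**Figure D2:**
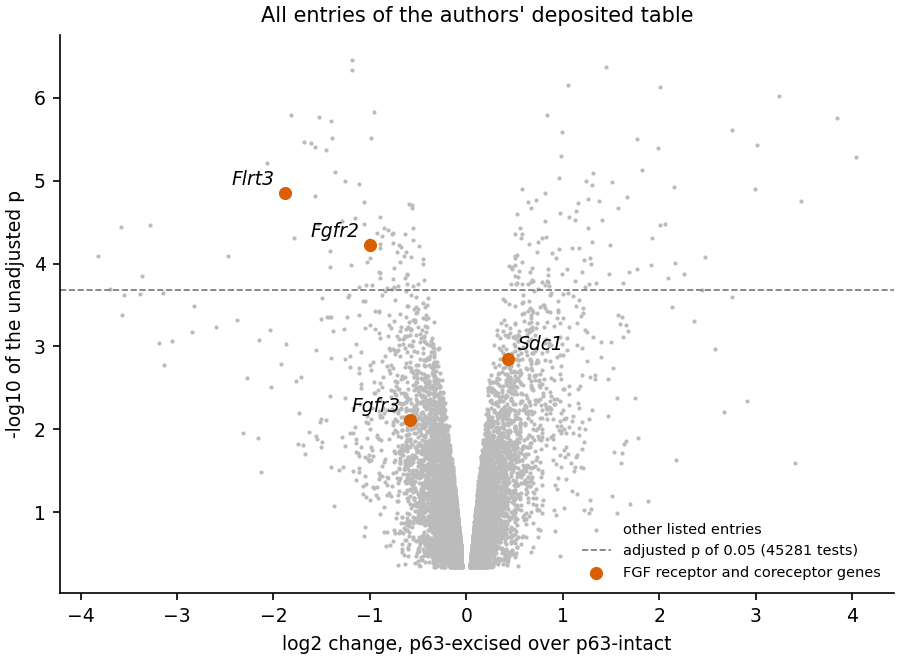
Log2 change (horizontal) against -log10 of the unadjusted p (vertical) for the 16381 entries of the authors' deposited table, with the 4 FGF receptor and coreceptor genes in orange. Flrt3 and Fgfr2 lie above the dashed line, which marks the test's threshold after adjustment, and Sdc1 and Fgfr3 lie below it; the gap around 0 and the flat lower edge come from the table's upper limit on p.

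Fgfr2 was set beside the other receptor tyrosine kinases, some of which reach the same Ras and PI3K branches. Of 38 such receptor genes looked up, Fgfr2 and Fgfr3 included, 24 were found in the authors' deposited table, 12 higher and 12 lower. Fgfr2 fell, Epha1, an ephrin receptor gene, rose by 0.58 on the log2 scale (adjusted p = 0.0461, authors' deposited table), and 22 did not pass. Fgfr2 had both the smallest p and the deepest change among them, and Fgfr3 the second deepest among the lower ones. The 2 that passed of 24 stand beside 1.16% of all listed entries, and 14 of the 24 had an unadjusted p under 0.05, beside 19.9%. Both counts include Fgfr2 and Fgfr3 where these qualify, which were chosen with results of these data known. Among the 22 other receptor genes 1 passed, and 12 had an unadjusted p under 0.05. The median log2 change of the 24 was 0.01, against 0.05 for all listed entries. The Gas6 receptor gene Tyro3 was at 0.64, the ephrin receptor gene Epha2 at 0.74 and Mst1r, the receptor gene for macrophage-stimulating protein, at -0.31 (adjusted p = 0.0882, 0.14 and 0.201, authors' deposited table). The epidermal growth factor receptor gene Egfr, the best known of these receptors in keratinocytes, was at 0.10 (unadjusted p = 0.222, authors' deposited table).

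**Figure D3:**
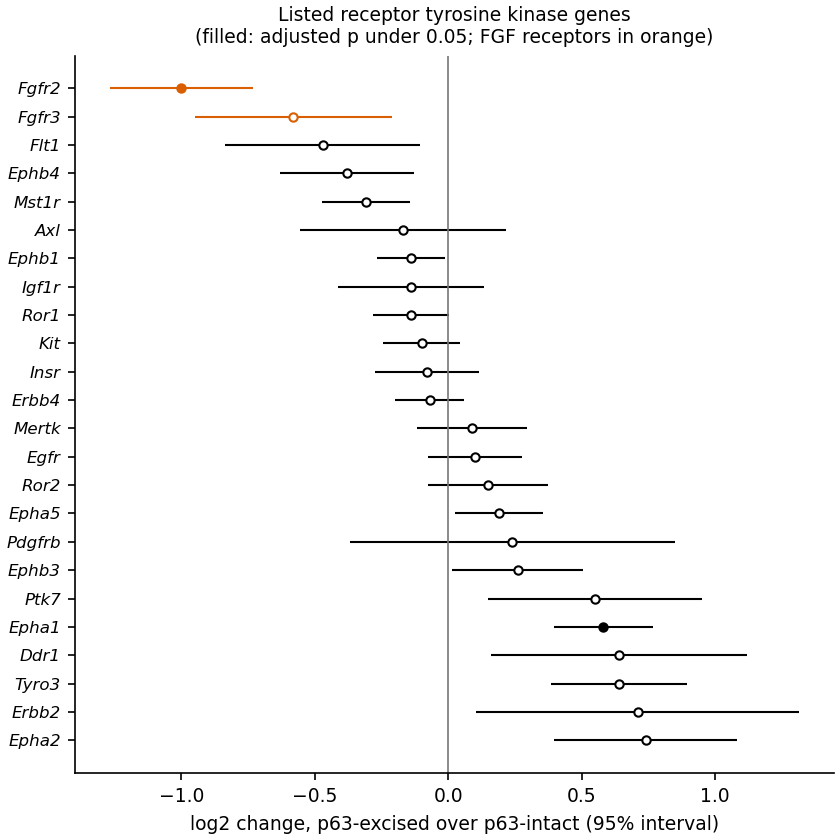
Log2 change, excised over intact tumours, with its 95% interval for the 24 of 38 receptor tyrosine kinase genes looked up that were found in the authors' deposited table, in order of change; filled points have an adjusted p under 0.05 and FGF receptors are orange. Fgfr2 (-1.0) and Fgfr3 (-0.58) are at one end, and Epha2 (0.74) at the other.

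The ligand genes lay near the lowest listed levels. Of 18 genes of secreted FGFs 8 are listed, 4 higher and 4 lower, and none passed; their mean log2 levels ran from 4.73 to 5.03, and 7 were under 5, as were 56.7% of all listed entries. Fgf7, the mesenchymal ligand of the epithelial FGFR2 form, was at -0.30 in the authors' deposited table (unadjusted p = 0.0388). Fgf15, an endocrine FGF, was at -0.13, Fgf5, a regulator of the hair cycle, at 0.21 and Fgf16 at 0.11 (unadjusted p = 0.0386, 0.0598 and 0.14, authors' deposited table). None of the 4 genes of intracellular FGF homologous factors is listed. Fgfbp1, whose secreted product carries FGFs away from the matrix, had a mean log2 level of 8.24 and a change of -0.45 in the authors' deposited table (unadjusted p = 0.229).

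No gene for the enzymes that build and edit heparan sulfate passed, beside 1.16% of all listed entries. Of 26 genes 15 are listed, 5 higher and 10 lower, while 49.0% of all listed entries were lower. The median of the 15 was -0.10, and 3 had an unadjusted p under 0.05, beside 19.9% of all listed entries. Ext1, which encodes a subunit of the chain polymerase, was at -0.33 in the authors' deposited table (adjusted p = 0.149). Hs3st1, a 3-O-sulfotransferase gene, was at 0.87 (adjusted p = 0.212), the xylosyltransferase gene Xylt2, which starts the chain, at -0.19 and the N-deacetylase gene Ndst2 at -0.24 (unadjusted p = 0.0321 and 0.0656, authors' deposited table). The changes thus ran both ways among the entries with the smallest p.

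Inside the cell, 20 of 27 genes for adaptors and the Ras-ERK, PI3K and phospholipase branches are listed. None passed, beside 1.16% of all listed entries, and 11 were higher and 9 lower with a median of 0.06. Mapk3, which encodes ERK1, was at 0.70 (adjusted p = 0.175, authors' deposited table). The PI3K subunit gene Pik3cb was at 0.60 (unadjusted p = 0.0157, authors' deposited table). Frs2, the adaptor on which FGF receptors depend, was at 0.25 (unadjusted p = 0.158, authors' deposited table).

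Of 12 feedback inhibitors of FGF receptor signalling 4 are listed and none passed. Dusp6, a phosphatase of ERK whose gene ERK induces, was at -0.62 and Dusp4, a related phosphatase gene, at 0.43 in the authors' deposited table (unadjusted p = 0.00269 and 0.0287). Il17rd, which encodes the inhibitor Sef, was at 0.09 in the authors' deposited table, near the lowest listed levels. Among 12 genes that ERK induces 10 are listed, 4 higher and 6 lower, none passed, and 3 had an unadjusted p under 0.05, beside 19.9% of all listed entries. Etv4, an ETS factor gene that responds to FGF, was at -0.95 ± 0.14 (SE from the t score) in the authors' deposited table, with an adjusted p of 0.0692. Myc was at 0.26 and the cyclin gene Ccnd1 at 0.51 (unadjusted p = 0.0152 and 0.058, authors' deposited table). The log2 changes of this list ran from -1.07 to 0.74, so it had no common direction.

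Regulators of the Fgfr2 splice choice were examined because the form that the array reads is not known here. Of 7 genes 5 are listed, 1 higher and 4 lower, none passed, and 4 had an unadjusted p under 0.05, beside 19.9% of all listed entries. Rbfox2, which promotes the epithelial exon, was at 0.54 ± 0.09 (SE from the t score) in the authors' deposited table, with an adjusted p of 0.095. Tia1, Hnrnph1 and Hnrnpm, RNA-binding protein genes, were at -0.24, -0.26 and -0.38 (adjusted p = 0.296, 0.322 and 0.353, authors' deposited table). Esrp2, an epithelial splicing regulator gene, was at -0.40 (unadjusted p = 0.0925, authors' deposited table), and Esrp1 is not analysed here.

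**Figure D4:**
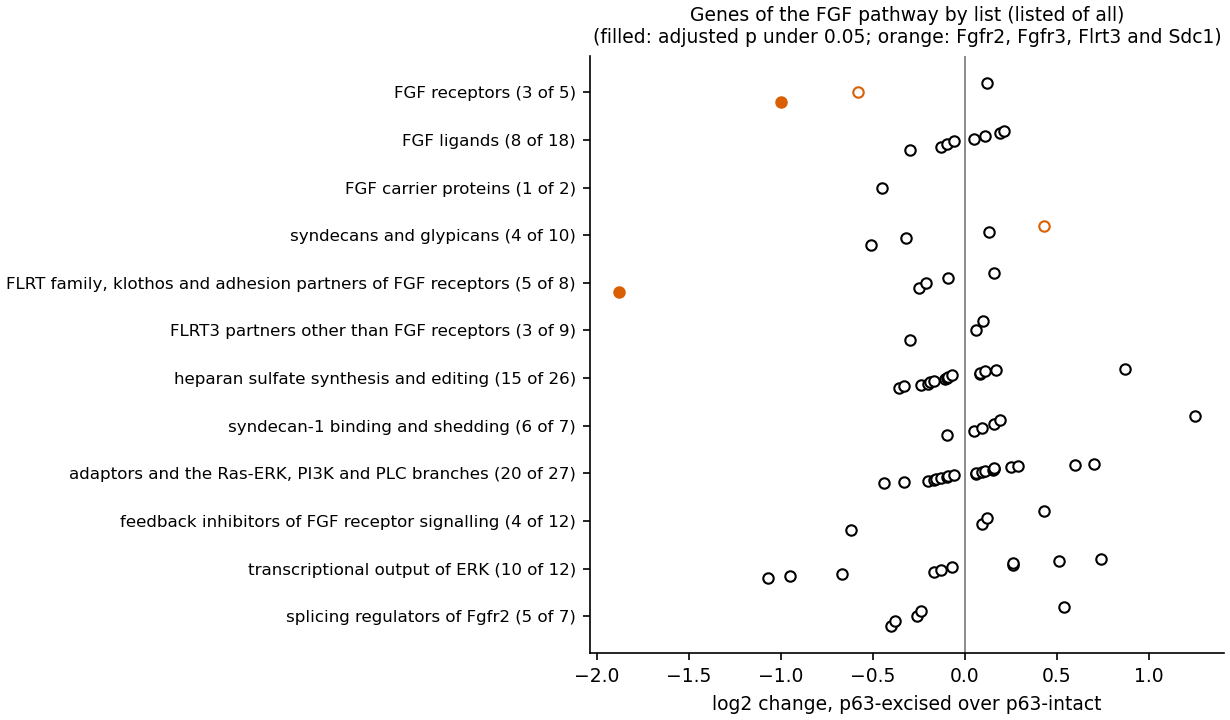
Log2 change, excised over intact tumours, of each listed gene (points) in 12 lists of the FGF pathway, with the number listed of all in brackets; small vertical shifts only separate points. Filled points have an adjusted p under 0.05: these are Fgfr2 and Flrt3, while Fgfr3 and Sdc1 (open orange) and all other genes did not pass.

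Marker genes of the cell types a whole tumour can hold were also looked up, and their part in the changes above was not tested. Only Krt15 and Col17a1 passed among all the marker lists, beside 1.16% of all listed entries. Of 11 keratinocyte genes 8 are listed, 4 higher and 4 lower; Krt15, a keratin of basal and follicle cells, rose by 2.76 and Col17a1, a hemidesmosomal collagen gene, fell by 0.77 on the log2 scale (adjusted p = 0.00833 and 0.0487, authors' deposited table). The summed level of the keratinocyte genes was 22542 in intact and 23893 in excised tumours (linear scale, from group means). Krt14, with implied group means of 13.96 and 14.08 in log2, held most of both sums. They therefore mainly follow this gene and say little about the others in the list. Skeletal muscle genes were higher for 7 of 7, none passed, and their summed level was 243 in intact and 515 in excised tumours. Of 9 fibroblast genes 4 are listed, 3 of them lower and none past the test, with summed levels of 416 and 261. Endothelial genes had 4 of 7 listed, 3 lower, with sums of 364 and 286, and myeloid genes 5 of 8 listed, 2 lower, with sums of 1031 and 645. Lyz2, the lysozyme gene of macrophages and neutrophils, was at -1.73 (adjusted p = 0.281, authors' deposited table), and without it the myeloid sums were 348 and 439. The macrophage genes Adgre1 and Cd68 were at -0.27 and 0.47 and the monocyte receptor gene Cd14 at 0.42 (unadjusted p = 0.0319, 0.284 and 0.138, authors' deposited table). Adipocyte genes had 3 of 6 listed, with sums of 91.7 and 92.5. Their mean log2 levels ran from 4.83 to 5.04, near the lowest listed, so these sums may be mostly background signal. Spread over arrays cannot be given for these sums. They leave out the unlisted markers, since the authors' deposited table holds only entries with an unadjusted p of up to 0.462.

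The entries closest to Fgfr2 in the plane of log2 change and mean log2 level, by Euclidean distance over the summary values of 6 arrays, were Col16a1, Dcun1d5, Zbtb2, LOC100045005 and Man2a2. Their distances ran from 0.0825 to 0.112, and their log2 changes in the authors' deposited table from -1.11 to -0.91. None of these 5 passed (adjusted p = 0.0731 to 0.598), although Fgfr2 did at a similar change, because their t scores were smaller in size, from -6.45 to -2.66 against -8.91. The standard error of the Fgfr2 change was therefore smaller than those of these 5 entries, which were chosen without regard to spread. It was not unusually small, at percentile 59.4 among listed entries, those with the smallest changes left out.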

How the data were processed

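Illumina bead array files of 3 p63-intact and 3 p63-excised tumours were used. The authors deposited an intensity and a detection p-value per probe, per the file headers; each array's mean was 131.4, so some scaling preceded deposit. A deposited value table holds log2 intensities with equal sorted values on each array. A last deposited table lists gene names with their log2 change and signed fold, mean level in log2, t and log-odds scores and raw p-value, per the file headers; its normalization and joining of probes into genes are not given in the sources used here. R 2.12.0 is named in the submitters' processing notes. All value columns were used.

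Named genes rest on the authors' deposited table. Benjamini-Hochberg adjustment of its p-values took all 45281 probes as tests, an upper bound. Standard errors are log2 change over t; 95% intervals use the 6.7 degrees of freedom that fit its t and p best; group means are the mean level with the log2 change divided equally between the groups. Its direction is read from the table's title: of its 50 largest changes, 40 lay nearer, in change, level and t, to a probe when read as excised over intact (mean distance 0.378 against 0.658). Names were matched to RefSeq symbols (GRCm38.p6): 8764 directly, 3104 through an older symbol, 4513 not. All 4 genes matched promoters in RefSeq.

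Probes were normalized with limma's neqc (offset 16) and tested with lmFit and eBayes, two-sided, if detected (p under 0.05) on at least 3 arrays; the fit was tested on simulated data. R 4.3.3, limma 3.58.1, Python 3.11.15, pandas 2.3.3, numpy 2.4.6 and scipy 1.17.1 were used. The genes and lists were chosen with earlier results of these data known. Named are the 4 genes, every listed member of each pathway list that passes plus its 4 smallest p, up to 3 genes per marker list, and the 5 entries nearest to Fgfr2; Krt5, Krt14, Egfr, Frs2, Sdcbp, Esrp2 and Cd68 were added for their roles after values were seen. Some items that this rule takes are left out of the text. Alternatives were other adjustments and, for probes, other corrections, normalizations, filters, weights, a replicate block and leaving out each array.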

Additional observations from a re-analysis of the deposited data

How the results depend on the processing

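The fall of Fgfr2 and of Flrt3 passed over 45281 tests and over the listed entries alone (adjusted p = 0.0102 and 0.00586 in the latter); under a Bonferroni adjustment over all probes neither did (p = 1 and 0.648), which left 0 of the 4 genes and 6 entries of the authors' deposited table. Counting only listed entries as tests brought Sdc1 past the threshold (0.049), with 3 of the 4 genes and 486 entries passing against 190; this count leaves out tests with a p above 0.462. Fgfr3 did not pass under any of these adjustments. Adjustment over detected probes was not run, because the table lists more entries than there are detected probes. For the named genes no background correction, normalization, filter or left-out array could be tried, since probes carry no gene names. Against 604 probes in the test reported, 396 passed under normexp with offset 50, 344 with no correction of background, 50 after scaling to a common median (which moved the median log2 change from -0.03 to -0.22, with 14 higher and 36 lower), 380 in the authors' value table, 203 without a filter and 963 with array weights. Leaving out 1 array gave 186 (without p63-intact 3) to 631 (without p63-excised 2); 301, 224, 328 and 233 passed without p63-intact 1, p63-intact 2, p63-excised 1 and p63-excised 3. The causes were not tested. A fit that took replicate numbers as a block called 1324 probes; same-numbered arrays deviated together for numbers 1 and 2 but not 3 (correlations 0.339, 0.383 and -0.06), and 4 of 6 arrays correlated best with their own number, so the numbers are not known to pair tumours.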
